A study of Mus musculus with 24 samples.

Results

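Mouse oocytes treated with SAHA were compared, gene by gene, with oocytes labelled con-in vitro, the control for culture. The comparison holds 4 of the 12 RNA sequencing columns, in a series of 24 samples in all. They are 2 SAHA libraries and 2 con-in vitro libraries, chosen by those labels. SAHA, also called vorinostat, is a small molecule that blocks zinc-dependent histone deacetylases. By its title, the study concerned a shortage of these enzymes in slowed meiotic maturation in oocytes exposed to microplastics (PSMPs in the labels), and SAHA blocks these enzymes by a drug. Each library was made from 5 cells pooled in 1 reaction. The labels give neither strain, age nor meiotic stage, neither dose, time nor vehicle of SAHA, and they do not say which control belongs to it. Values in 2 other groups are set beside the results as reference. They are con, the control without the in vitro label, and in vitro PSMPs, oocytes exposed to the particles in culture. Whether the 2 libraries of a group are from different animals is not said, so the p-values rest on a spread between libraries that may be technical.

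Histone deacetylases remove acetyl groups from lysines of histones and other proteins, and so oppose the acetyltransferases. Class I enzymes (Hdac1, Hdac2, Hdac3 and Hdac8) work mostly in the nucleus inside corepressor complexes. When they are blocked, acetylation rises and the RNA of many genes goes up while that of others goes down. Growing oocytes store maternal mRNA in ribonucleoprotein particles, and meiotic maturation runs on the timed translation and clearance of that store.

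The con-in vitro libraries were shallower than the SAHA libraries and held fewer genes. The 2 con-in vitro libraries totalled 6.22 M and 6.40 M counts and the 2 SAHA libraries 19.2 M and 19.4 M. At least 1 count was found for 11832 and 11640 genes in con-in vitro and for 20298 and 20571 in SAHA. Redrawn with replacement to 6219784 counts each, the SAHA libraries were expected to hold 17753 and 17779 genes and the con-in vitro libraries 11511 and 11334. Such redrawing loses genes even at a library's own depth, as in con-in vitro replicate 1 (11832 to 11511). With 2 libraries against 2, the exact permutation test cannot go below its p of 0.333. The difference in genes with at least 1 count gave that value (two-sided). Con-in vitro was also more uneven, with 52.2% and 53.3% of its counts in its 100 top genes, against 36.1% and 35.8% in SAHA. The con-in vitro libraries also differed more from each other than the SAHA libraries did. Their log2 levels correlated at 0.804 across genes, against 0.975 for SAHA. Of 5761 and 6025 genes with at least 50 counts in a con-in vitro library, 105 and 113 were at 0 in its partner. In SAHA this held for 0 of 9916 and 3 of 9922. The con libraries, a reference below, were further apart still. They correlated at 0.773, and 704 of 8852 and 1074 of 9760 such genes were at 0 in the partner. At 30.7 M and 35.6 M counts they held 12316 and 12843 genes. In in vitro PSMPs the correlation was 0.942, with 0 of 9178 and 0 of 8951 such genes. Counts were scaled by TMM, a method that assumes most genes do not change, and the factors (0.542 and 0.572 for con-in vitro, 0.920 and 0.905 for SAHA) raise every con-in vitro level. Levels below are these TMM-normalised CPM, counts scaled to a common library total, with both libraries of a group given in the order of their numbers.

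SAHA oocytes had higher RNA for 1950 genes and lower RNA for 1363, of 16736 tested. That is 11.7% and 8.14%, or 19.8% in either direction, at an adjusted p under 0.05 by edgeR's quasi-likelihood test with Benjamini-Hochberg adjustment over all genes. The genes fell into classes by their counts. Those with at least 10 counts in all 4 libraries numbered 7467 and took 95.2% and 95.3% of the SAHA counts and 98.9% and 98.8% of the con-in vitro counts. In this class 1028 rose (13.8%) and 1182 fell (15.8%), 29.6% together, with a median log2 fold change of -0.37 over the class and 0.66 over all genes. The libraries of the groups were apart, with no overlap, for all of these 2210 genes and for 68.4% of all genes tested. The 9614 genes at 0 in both control libraries but not in both SAHA libraries included 3739 tested ones, and 649 of those rose (17.4%). Another 273 higher and 136 lower genes had counts between these limits, and 45 lower genes were at 0 in both SAHA libraries. At the edge of the 10-count class, 365 genes had a lowest count of 10 to 12 and a median log2 of -0.13, and 442 had a lowest count of 7 to 9 and a median of 0.10. The lowest value lay in a con-in vitro library for 311 of the 365.

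**Figure D1:**
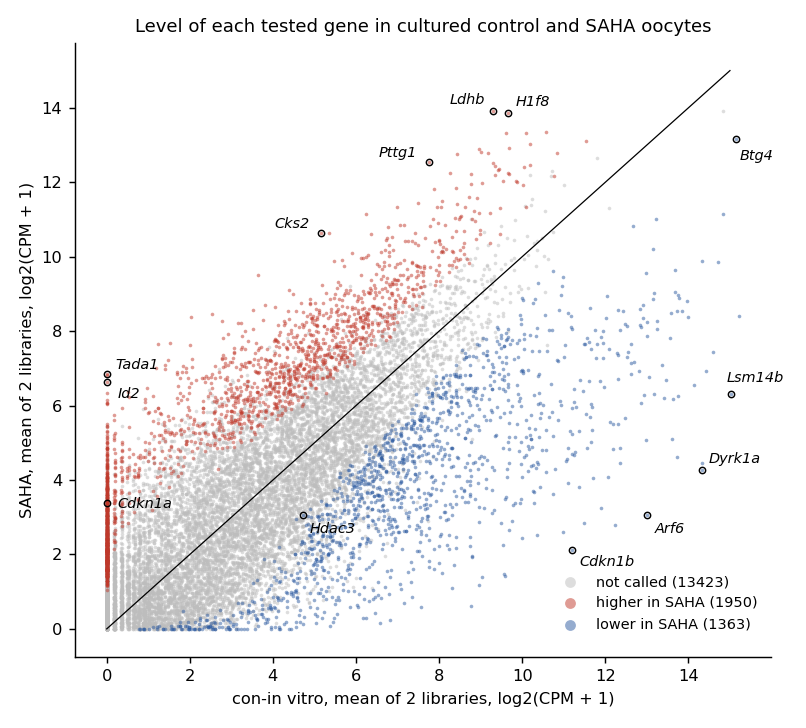
Each point is 1 of the 16736 tested genes, with its mean level in con-in vitro (x axis) and in SAHA (y axis) as log2(CPM + 1), 2 libraries each. Red marks the 1950 genes called higher in SAHA and blue the 1363 called lower. The line marks equal levels. The column of points at 0 on the x axis holds the genes without a count in con-in vitro, and the most extreme blue points, such as Arf6 and Dyrk1a, lie high on the con-in vitro axis.

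The split of the calls depended on the scaling. Scaled by library totals alone, the median of all genes moved from 0.66 to 1.37 and the calls became 3222 higher and 922 lower, so that 77.8% of calls were higher instead of 58.9%. In the class with at least 10 counts, the median moved from -0.37 to 0.33 and the calls to 1679 higher and 791 lower (68.0% higher instead of 46.5%). Directions in these results are therefore relative to the bulk of genes. The counts also rested on each SAHA library. Leaving 1 library in a group assumes that it varies like the other groups. Without SAHA replicate 1 the higher and lower calls were 668 and 480, and without replicate 2 they were 645 and 466. In the 10-count class all 1028 higher and all 1182 lower genes had the same sign without any 1 of the 4 libraries. The libraries of the groups did not overlap for any of these genes, so leaving 1 out could hardly turn a sign. The kept signs are therefore no test of the calls.

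The genes at 0 in con-in vitro were led by Tada1, a subunit of the SAGA histone acetyltransferase complex (ENSMUSG00000026563.13, mm10 chromosome 1, 166379097 to 166393621). It had 101 and 127 CPM in SAHA and no count in either con-in vitro library. Against a floor of 3 counts over the control group it was at least 267-fold higher (adjusted p = 0.000184). The con libraries held 28.8 and 22.7 CPM and the in vitro PSMPs libraries 57.8 and 84.3 CPM, so con-in vitro was the only group of these at 0. Wdr61 of the PAF and SKI complexes stood at 124 and 101 CPM (at least 264-fold) and the centromere gene Cenpu at 79.3 and 79.7 CPM (at least 186-fold), while con held 37.5 and 14.8 CPM of Wdr61 and 41.8 and 24.8 CPM of Cenpu. Id2 had another pattern (ENSMUSG00000020644.9, mm10 chromosome 12, 25093799 to 25097140). It encodes an inhibitor of basic helix-loop-helix transcription factors. SAHA held 117 and 79.0 CPM of it, and it was at 0 in con as well as in con-in vitro and at 9.80 and 23.3 CPM in in vitro PSMPs (at least 229.9-fold higher than con-in vitro, adjusted p = 0.00210). Its lower SAHA library was thus above all other libraries named here. The remaining genes named by rank were Fmr1nb (at least 165-fold), Atg4a of autophagy (155), Lsm4 of the spliceosomal LSm ring (152), the transketolase-like gene Tktl1 (104), Tmem74 (97.8) and Snapin (91.1), a SNARE-associated gene, each bound in fold. Lsm4 and Tktl1 lost their calls without any 1 of the 4 libraries (adjusted p up to 0.144 and 0.0969), and Snapin without either SAHA library (up to 0.054). Lsm4 was at 0 and 15.5 CPM in con, so 1 con library lacked it too.

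Most of the 649 genes were less abundant than these. Their median SAHA level was 4.19 CPM. Scaled by library totals alone, all 649 would have had at least 10 counts in con-in vitro at their SAHA level, 149 of them at least 100. The TMM factors make these expected counts smaller. With them the lowest of the 649 was at least 2.53-fold above the floor of 3 counts. Of the 649, 548 had at least 1 CPM in both in vitro PSMPs libraries, 219 had it in both con libraries, and 282 were at 0 in con too. Unnamed gene models made up 206. How often a gene was at 0 in con-in vitro followed its level in SAHA, taken here as CPM of the library totals without TMM factors. The share was 36.7% for genes at 1 to 3 CPM in SAHA, 477 of 2975 genes at 3 to 10 CPM, 4.27% at 10 to 30 CPM and 0.681% at 30 to 100 CPM. Above that it was 2 of 1116 genes, and 0 beyond 300 CPM. The con group, although deeper, had a like course with 30.4%, 11.8%, 2.43% and 0.590%, while in vitro PSMPs had 0.287% in the lowest class. Of the 649 calls, 62 remained without SAHA replicate 1 and 59 without replicate 2. They were 306 without con-in vitro replicate 1 and 224 without replicate 2. Whether RNA missed in amplification set these zeros was not tested.

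**Figure D2:**
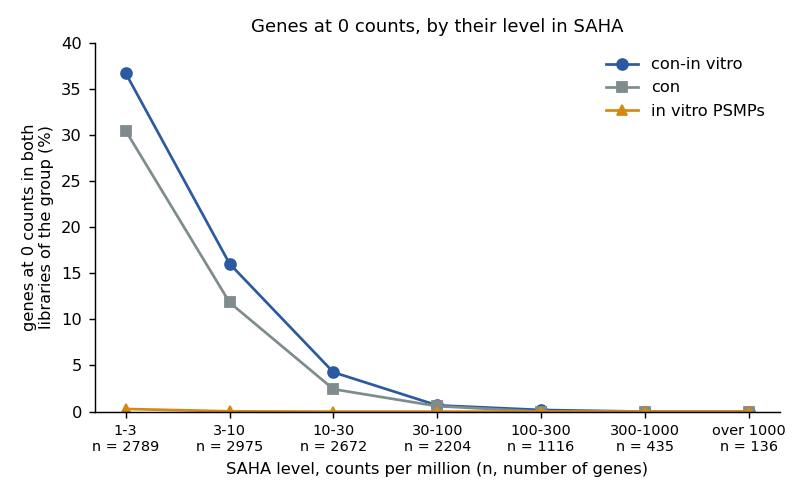
Share of genes without a count in both libraries of a group (y axis, %) by the gene's level in SAHA. The x axis gives classes of CPM by library totals, without TMM factors, with the number of genes. In con-in vitro the share falls from 36.7% in the lowest class to 0 above 300 CPM, con follows it closely, and in vitro PSMPs stays under 1% throughout.

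Among genes with at least 10 counts in all 4 libraries, the largest rise was that of Fbxw23, an F-box and WD40 gene (ENSMUSG00000104572.5, mm10 chromosome 9, 109516388 to 109534858). It went from 2.96 and 3.00 to 239 and 158 CPM (log2 6.05 ± 0.52, adjusted p = 0.000183). It belongs to a cluster of near-identical genes, so the counting could split its reads. The glutathione transferase gene Gstm5 went from 17.8 and 5.19 to 838 and 606 CPM (log2 5.98 ± 0.64). Tmsb10, which encodes an actin-sequestering thymosin, went from 6.82 and 4.91 to 300.0 and 313 CPM (log2 5.71 ± 0.71). In con it was at 2.85 and 11 CPM, near con-in vitro, whereas in vitro PSMPs held 241 and 148 CPM. Cks2, a small subunit of cyclin-dependent kinases that oocytes need for the first meiotic division, went from 54.3 and 15.6 to 1761 and 1391 CPM (log2 5.50 ± 0.65). For Cks2 the SAHA libraries lay near con, at 1385 and 813 CPM. Genes for RNA polymerase II subunits were among the top as well. Polr2c went from 53.1 and 26.2 to 1560.4 and 1647 CPM (log2 5.34 ± 0.44). Polr2j rose by log2 4.99 ± 0.53. The mitochondrial gene Romo1 (log2 5.38 ± 0.45), the biliverdin reductase gene Blvra (log2 5.23 ± 0.49) and Cdc34b, for a ubiquitin-conjugating enzyme (log2 5.17 ± 0.53), rose too. Ldhb-ps rose from 62.0 and 86.8 to 2263 and 2259 CPM, but it is a copy of Ldhb and reads of either may be counted for the other. The adjusted p of these 10 lay between 6.98e-05 and 0.000874, and they kept their calls without any 1 of the 4 libraries.

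The 10 largest falls all exceeded the largest rise in size, within the 10-count class. The rule for that class limits rises more than falls. In con-in vitro replicate 1, 10 counts were 2.96 CPM, and in SAHA replicate 2 they were 0.568 CPM. Genes at 0 in either group, such as Tada1 and Id2, lie outside the class. Arf6, a small GTPase of membrane traffic and the cortical cytoskeleton (ENSMUSG00000044147.8, mm10 chromosome 12, 69372150 to 69373783), went from 8739.8 and 7729 CPM in con-in vitro to 6.84 and 7.73 CPM in SAHA (log2 -10.14 ± 0.57, adjusted p = 5.48e-05). Dyrk1a, a dual-specificity kinase (ENSMUSG00000022897.15, mm10 chromosome 16, 94570010 to 94695517), went from 20708 and 20113 to 22.6 and 14.1 CPM (log2 -10.12 ± 0.65). The con libraries held 28.0 and 63.3 CPM of Arf6 and 42.0 and 107 CPM of Dyrk1a, and the in vitro PSMPs libraries 13.3 and 12.3 CPM and 43.5 and 37.9 CPM. For both genes con-in vitro was high and the 3 other groups were low. Tspyl1 went from 18289.9 and 22773 to 24.3 and 17.9 CPM and the myotubularin phosphatase gene Mtmr2 from 11739.7 and 15429 to 24.6 and 22.7 CPM. The deubiquitinase gene Otub1 fell by log2 9.65 ± 1.46, the F-box gene Fbxo46 by 8.87 ± 0.84, the guidance receptor gene Robo1 by 8.83 ± 1.08 and Pced1b by 8.81 ± 0.57. Lsm14b, an RNA-binding protein of stored maternal mRNA (ENSMUSG00000039108.14, mm10 chromosome 2, 180024987 to 180035465), differed in its reference level. It went from 21223 and 44977 to 88.9 and 66.9 CPM (log2 -8.73 ± 0.63), and con lay between them at 1891 and 1712 CPM. The adjusted p of the 10 falls, Cdkn1b below included, lay between 5.48e-05 and 0.00244, and none lost its call without any 1 of the 4 libraries. Together these 10 genes took 5.04% and 7.32% of all con-in vitro counts, 0.0183% and 0.0135% of SAHA counts, and 0.217% and 0.243% of con counts.

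The same held for the fallen genes as a whole. The 1182 genes took 71.2% and 73.8% of the con-in vitro counts, 7.79% and 7.12% of the SAHA counts, 14.7% and 15.2% of the con counts and 8.30% and 8.23% of the in vitro PSMPs counts. Of them, 986 differed by at least 4-fold, 412 by at least 16-fold and 107 by at least 64-fold. Of the 1028 risen genes, 769 differed by at least 4-fold, 63 by at least 16-fold and 1 by at least 64-fold. The risen genes took 5.54% and 4.86% of the con-in vitro counts, 52.4% and 51.6% of the SAHA counts and 38.9% and 36.4% of the con counts. These shares describe genes chosen by this contrast, and the con-in vitro libraries enter both the choice and the share.

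**Figure D3:**
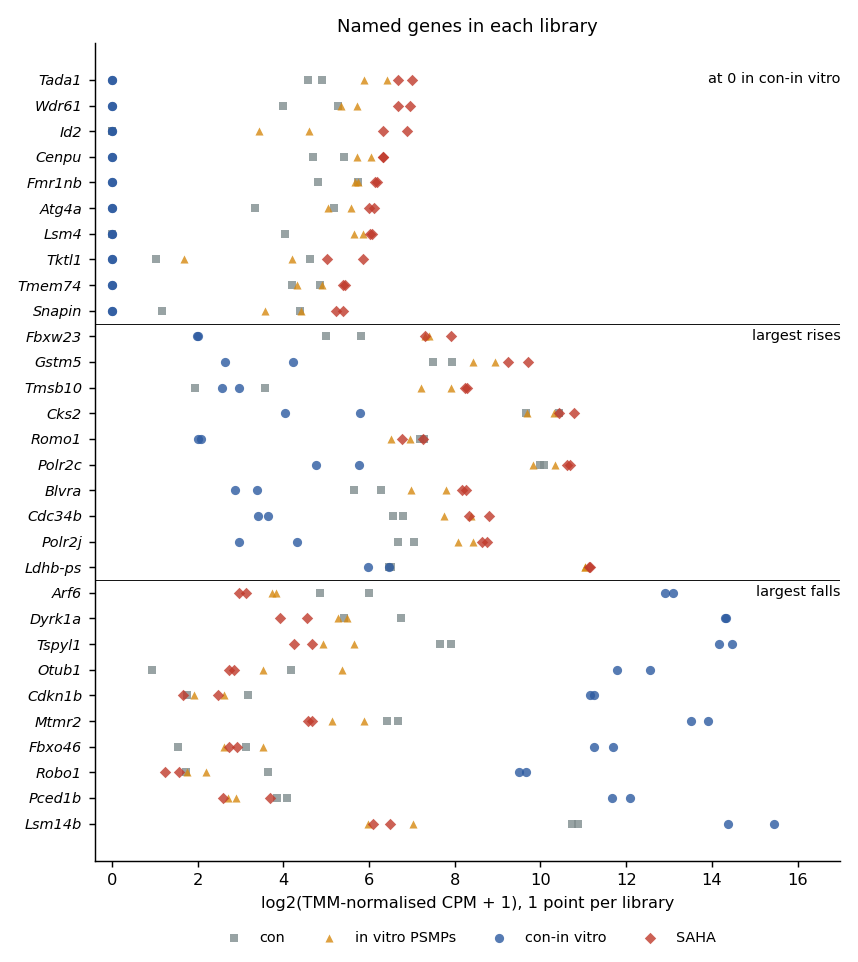
Levels of 30 named genes in each library, as log2(CPM + 1), 1 point per library. The upper block holds genes at 0 in con-in vitro, the middle block the 10 largest rises and the lower block the 10 largest falls among genes with at least 10 counts in all 4 libraries. In the lower block the con-in vitro points lie to the right of all SAHA, con and in vitro PSMPs points.

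Cdkn1a and Cdkn1b encode a pair of related inhibitors of cyclin-dependent kinases, p21 and p27, and they moved in opposite directions. Cdkn1a (ENSMUSG00000023067.14, mm10 chromosome 17, 29090976 to 29100727) is a classical gene raised by deacetylase inhibitors in many cell types. It had no count in con-in vitro and stood at 10.3 and 8.64 CPM in SAHA, at least 22.2-fold higher (adjusted p = 0.0251). The con libraries held 0 and 0.0257 CPM and the in vitro PSMPs libraries 0.648 and 1.37 CPM, so the SAHA libraries were the highest of these 8. The call was lost without any 1 of the 4 libraries (adjusted p from 0.0516 to 0.0995). Cdkn1b (ENSMUSG00000003031.14, mm10 chromosome 6, 134920401 to 134925513) went from 2269 and 2433 CPM in con-in vitro to 4.58 and 2.16 CPM in SAHA (log2 -9.44 ± 0.84, adjusted p = 0.000213). Here con (8.02 and 2.37 CPM) and in vitro PSMPs (2.75 and 5.17 CPM) were under 10 CPM as SAHA was, and con-in vitro alone was high.

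The 250 bases before the annotated start of these genes, of Id2 and of the oocyte linker histone gene H1f8 are printed here because these genes carry the contrast between rises and falls. They are from RefSeq on GRCm38.p6, 5′ to 3′ on the gene's strand. The starts are RefSeq's, and the windows of Id2 and of the downstream Cdkn1a start lie inside the spans given above for those genes. Capitals mark the GC box GGGCGG on either strand, the core letters bound by Sp1-type factors. Of all 32851 windows of this length in the table, 32.7% hold at least 1 such box and 16.7% at least 2.
Cdkn1a, upstream start, chr17:29090729-29090978, plus strand: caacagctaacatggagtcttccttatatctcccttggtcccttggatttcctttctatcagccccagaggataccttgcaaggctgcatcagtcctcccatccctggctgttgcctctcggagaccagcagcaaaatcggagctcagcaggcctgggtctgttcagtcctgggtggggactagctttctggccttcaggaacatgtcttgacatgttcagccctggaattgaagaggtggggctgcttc
Cdkn1a, downstream start, chr17:29093519-29093768, plus strand: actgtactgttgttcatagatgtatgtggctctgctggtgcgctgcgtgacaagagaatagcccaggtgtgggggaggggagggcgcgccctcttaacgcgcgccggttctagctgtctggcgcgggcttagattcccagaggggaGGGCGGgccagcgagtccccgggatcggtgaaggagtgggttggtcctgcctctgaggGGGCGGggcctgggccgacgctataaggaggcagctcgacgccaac
Id2, chr12:25096093-25096342, minus strand: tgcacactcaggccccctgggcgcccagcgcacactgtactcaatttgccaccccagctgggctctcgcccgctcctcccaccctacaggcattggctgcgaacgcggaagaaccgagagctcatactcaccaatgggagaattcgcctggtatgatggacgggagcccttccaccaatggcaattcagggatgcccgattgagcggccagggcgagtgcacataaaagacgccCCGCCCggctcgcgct
H1f8, chr6:115944681-115944930, plus strand: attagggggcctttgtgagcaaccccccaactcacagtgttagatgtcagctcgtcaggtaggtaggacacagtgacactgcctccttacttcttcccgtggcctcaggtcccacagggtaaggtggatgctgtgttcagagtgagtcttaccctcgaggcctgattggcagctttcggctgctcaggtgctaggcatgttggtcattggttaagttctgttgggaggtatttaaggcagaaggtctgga
Cdkn1b, chr6:134920151-134920400, plus strand: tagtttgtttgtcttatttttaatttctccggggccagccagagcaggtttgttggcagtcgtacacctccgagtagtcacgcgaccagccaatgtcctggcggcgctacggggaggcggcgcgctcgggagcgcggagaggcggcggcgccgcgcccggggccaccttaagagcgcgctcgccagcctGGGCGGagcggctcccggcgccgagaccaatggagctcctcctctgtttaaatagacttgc

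The downstream window of Cdkn1a holds 2 GC boxes, whose first bases lie 104 and 46 bases before the start. The window of Cdkn1b, the gene that fell, holds 1 at 61 bases, and that of Id2 holds 1 at 16 bases. The upstream window of Cdkn1a and the window of H1f8 hold none. The box was thus found beside genes that rose and beside the gene that fell. No match says only that these letters are not in the window.

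Transcripts of the zinc-dependent histone deacetylases were examined next. For the calls that follow, the shares over all genes tested were 11.7% higher and 8.14% lower. Of the 4 class I genes, Hdac1 was called higher and Hdac3 lower. Hdac1 (ENSMUSG00000028800.15, mm10 chromosome 4, 129516104 to 129542713) was at 0 in con-in vitro and at 10.2 and 12.8 CPM in SAHA (at least 26.9-fold higher, adjusted p = 0.0458). It stood at 0.0694 and 3.60 CPM in con, and its call was lost without any 1 of the 4 libraries (adjusted p up to 0.136). Hdac3 (ENSMUSG00000024454.16), the catalytic subunit of the NCoR and SMRT complexes, stood at 26.7 and 23.8 CPM in con-in vitro and 7.46 and 7.16 CPM in SAHA (log2 -1.79 ± 0.45, adjusted p = 0.0257). The groups did not overlap, but the call was lost without either SAHA library, without con-in vitro replicate 1 (adjusted p up to 0.139) and with library totals (log2 -1.07, adjusted p = 0.121). Hdac2 had 56.6 and 31.7 CPM in con-in vitro and 93.8 and 94.2 CPM in SAHA (adjusted p = 0.219), but with library totals it was called higher (log2 1.81, adjusted p = 0.0492), so that class I then had 2 higher and 0 lower calls. Hdac8 had 5.63 and 4.64 CPM in con-in vitro against 20.8 and 20.3 CPM in SAHA (adjusted p = 0.211). Of the 7 class II and IV genes 6 were tested and none passed. Hdac4 had 18.4 and 48.3 CPM in con-in vitro against 31.7 and 26.8 CPM in SAHA, Hdac9 had 21.3 and 24.0 against 8.54 and 14.8 CPM and Hdac6 had 1.78 and 15.8 against 2.43 and 9.72 CPM. The con-in vitro libraries alone spanned more than the SAHA libraries for Hdac4 and Hdac6. Hdac7, Hdac10 and Hdac11 stood at or under 3.28 CPM in all 4 libraries, and Hdac5 did not pass the filter. Of 7 sirtuins, deacetylases that SAHA does not target, Sirt4 rose from 4.45 and 10.9 to 93.1 and 85.0 CPM and Sirt6 fell from 1053 and 1683 to 14.8 and 11.4 CPM (log2 -6.71 ± 0.55).

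On the acetylation side the order of rises and falls depended in part on the scaling. The shares over all genes tested, with TMM scaling, were 11.7% higher and 8.14% lower. Of 13 tested histone acetyltransferase genes 1 rose and 4 fell (2 and 4 with library totals). Hat1, which acetylates new histone H4, rose from 43.6 and 23.5 to 409 and 346 CPM (log2 3.49 ± 0.52). The nuclear receptor coactivator genes Ncoa1 (873 and 1169 to 16.2 and 15.5 CPM) and Ncoa3 (4859 and 7625 to 251 and 152 CPM) fell, as did Kat6b (log2 -3.18 ± 0.44). Kat8, also called MOF, which acetylates H4K16, stood at 17.8 and 55.7 CPM in con-in vitro and 47.9 and 85.9 CPM in SAHA (adjusted p = 0.534), and the groups overlapped. Of the 12 genes of its complexes 4 rose and 3 fell. Msl3 rose from 48.0 and 41.5 to 366 and 368 CPM, and Msl2 (99.6 and 33.0 to 5.37 and 1.93 CPM) and Kansl1 (102 and 213 to 15.9 and 14.8 CPM) fell. Of 15 acetyl-lysine readers 1 rose, the germ-cell gene Brdt (133 and 70.4 to 1036 and 682 CPM), and 5 fell, among them Cecr2 (8909.7 and 5932 to 318 and 231 CPM). Of 27 tested corepressor subunits 2 rose, among them Rbbp7 (1034 and 601 to 8029 and 7548 CPM), and 4 fell, among them Gatad2b (6148 and 3961 to 123 and 86.7 CPM) and Sin3b (1376 and 1042 to 167 and 184 CPM). Among members with 10 counts in all 4 libraries, the medians were log2 -0.34 for acetyltransferases, 0.32 for the MOF complexes, -0.91 for readers and -0.46 for corepressors, against -0.37 for that whole class. With library totals the first and the last turned to 0.36 and 0.25, and the calls became 2 higher and 2 lower for readers and 5 higher and 4 lower for corepressors. Without SAHA replicate 1 and without replicate 2, respectively, 4 and 3 of the 4 acetyltransferase falls were kept, 1 and 1 of the 5 reader falls, and 2 and 2 of the 4 corepressor falls. None of the MOF complex falls was kept in either case.

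A list of 26 genes known from other cell types to respond to deacetylase inhibitors gave calls in both directions. So did all genes tested (11.7% higher and 8.14% lower). Of 21 tested, 4 rose and 2 fell. Besides Cdkn1a, the stress gene Gadd45b was at 0 in con-in vitro and at 5.94 and 12.8 CPM in SAHA (at least 22.0-fold higher). The CTP synthase gene Ctps went from 121 and 225 to 391 and 447 CPM (log2 1.28 ± 0.35). Tubb3, a neuronal beta-tubulin gene outside the naming rule and named after its values were seen, went from 91.9 and 119.6 to 239 and 363 CPM. The cyclin D1 gene Ccnd1 fell from 27.9 and 86.3 to 0.678 and 0.341 CPM (log2 -6.79 ± 1.23) and Gadd45a from 109 and 44.0 to 4.30 and 4.03 CPM. Ccnd1 was at 0 in both con libraries, so con-in vitro was the group apart. The linker histone gene H1f0, named after its values were seen because it is widely used to mark such a response, stood at 77.1 and 78.4 CPM in con-in vitro and 21.4 and 42.3 CPM in SAHA (log2 -1.29 ± 0.43, adjusted p = 0.0616), and did not pass. All 6 calls were lost without either SAHA library. Of 10 tested immediate early genes, Fos was at 0 in con-in vitro and at 8.82 and 10.2 CPM in SAHA (at least 22.3-fold higher), against 4.93 and 0.978 CPM for con and 0.243 and 0.404 CPM for in vitro PSMPs. Dusp1, a phosphatase that ends MAP kinase signalling, rose from 99.0 and 186 to 456 and 457 CPM. Both lost their calls without either SAHA library.

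Genes specific to oocytes gave more rises than falls. So did all genes tested (11.7% higher and 8.14% lower). The 10-count class, which holds nearly all of these genes, did not with TMM scaling (13.8% higher and 15.8% lower). Of 29 tested identity markers 12 rose, 2 fell and 15 did not pass, with a median log2 of 1.50 over the 28 in the 10-count class (2.22 with library totals). Of the 30 markers listed, 28 thus had at least 10 counts in all 4 libraries of the contrast, as the oocyte label asks. The 1 untested marker was at 0 in both con-in vitro libraries. H1f8, the linker histone of oocytes (ENSMUSG00000042279.13, mm10 chromosome 6, 115944938 to 115950236), went from 812 and 799.9 CPM in con-in vitro to 14012 and 15589 CPM in SAHA (log2 4.20 ± 0.29, adjusted p = 7.30e-05). Con (13457 and 11928 CPM) and in vitro PSMPs (10804 and 12809 CPM) were close to SAHA. The germ-cell helicase gene Ddx4 went from 26.7 and 24.0 to 387 and 343 CPM and the antiapoptotic gene Bcl2l10 from 1365 and 951 to 9020.1 and 7795 CPM. Against that, Btg4, which brings the CCR4-NOT deadenylase to maternal mRNA, fell from 44887 and 27521 to 10224 and 8232 CPM (log2 -1.97 ± 0.38), and the early transcription factor gene Lhx8 from 235 and 375 to 28.9 and 81.7 CPM. Both falls were lost without either SAHA library, and that of Lhx8 also with library totals and without con-in vitro replicate 2, and 8 and 9 of the 12 rises were kept without SAHA replicate 1 and replicate 2. Of 9 genes of the subcortical maternal complex and its partners 3 rose, led by Nlrp5, a maternal-effect gene of early cleavage (224 and 270.0 to 1852 and 3267 CPM), and none fell. Of 8 oocyte Nlrp genes 4 rose and none fell, with Nlrp9c at 556 and 236 CPM in con-in vitro and 2797 and 2351 CPM in SAHA. Of the 4 Nlrp rises 1 and 1 were kept without SAHA replicate 1 and without replicate 2, respectively, and 2 and 1 of the 3 in the subcortical list. These Nlrp genes are close copies, so their reads may be split among them.

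The cell cycle genes of meiosis also gave more rises than falls, as did all genes tested (11.7% higher and 8.14% lower). The 10-count class, which holds most of these genes, did not with TMM scaling (13.8% higher and 15.8% lower). Of 26 genes for cyclin B, Cdk1 and the arrest kinases 8 rose and 2 fell. The cyclin B1 gene Ccnb1, whose protein drives entry into the meiotic divisions with Cdk1, went from 589.7 and 400.2 to 7425 and 7774 CPM (log2 3.94 ± 0.39, adjusted p = 0.000309). Its SAHA level lay above con (3798 and 2520.2 CPM) too. Mos, the kinase that holds metaphase II arrest, went from 287 and 210.2 to 1888 and 1919.6 CPM, with con at 3530.1 and 3381 CPM. Besides Cdkn1b, the phosphatase gene Cdc25a fell from 143 and 137 to 22.7 and 26.7 CPM. Of 18 anaphase-promoting complex genes 8 rose and 1 fell (Anapc4). The coactivator gene Cdc20 went from 70.6 and 116 to 470.4 and 584 CPM and the subunit gene Anapc11 from 5.63 and 21.0 to 159 and 141 CPM. Of 24 tested genes for the spindle checkpoint, cohesin and Aurora kinases 7 rose and 3 fell. Pttg1, which encodes securin, the anaphase inhibitor, went from 304 and 125 to 6303 and 5648 CPM (log2 4.80 ± 0.50). The germ-cell Aurora kinase gene Aurkc rose from 16.6 and 21.0 to 189.6 and 186 CPM, and the cohesin gene Rad21 (146 and 158 to 38.6 and 29.2 CPM) and the checkpoint kinase gene Ttk (346 and 337 to 50.7 and 55.1 CPM) fell. In the 10-count class the medians were log2 1.20, 0.33 and 0.75, each above the -0.37 of the class. Without SAHA replicate 1 the rises kept were 7 of 8, 3 of 8 and 4 of 7, and without replicate 2 they were 5, 4 and 4. The falls of Cdc25a, Rad21, Ttk and Anapc4 were lost in both cases (adjusted p up to 0.193), and those of Ttk and Anapc4 also with library totals. Of 11 tested genes of the cAMP brake on meiosis, Prkar2b and Prkar1a rose and the phosphodiesterase gene Pde3a fell (391 and 362 to 111 and 78.6 CPM). All 3 were lost without either SAHA library.

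Of 24 genes that store and translationally control maternal mRNA 0 rose and 6 fell, against 3 and 4 with library totals. Over all genes tested, 11.7% rose and 8.14% fell with TMM scaling. Of 23 tested genes that clear it 2 rose and 6 fell, an order that turned to 5 and 4 with library totals. Besides Lsm14b, the oocyte cap-binding gene Eif4e1b fell from 88.1 and 135 to 12.7 and 10.5 CPM and the polyadenylation-element binding gene Cpeb3 from 109 and 78.1 to 16.5 and 16.4 CPM. Among clearance genes the deadenylase subunit gene Pan3 fell from 12518 and 11517 to 279.7 and 169 CPM (log2 -5.74 ± 0.50) and the m6A reader gene Ythdf2 from 1481 and 1229 to 141 and 210.5 CPM. For Pan3, con was at 286 and 195 CPM, level with SAHA. The CCR4-NOT subunit genes Cnot7 (1167 and 1004 to 2525 and 2671 CPM) and Cnot3 (19.6 and 42.0 to 100.2 and 146 CPM) rose. Of 26 histone methylation genes 2 rose, 10 fell and 14 did not pass (4 and 7 called with library totals), with a median of -1.31 over the 21 in the 10-count class (-0.59 with library totals). The H3K4 demethylase gene Kdm5c fell from 3318 and 3297 to 17.2 and 13.8 CPM (log2 -7.74 ± 0.53). Setdb1, for H3K9 methylation, fell from 158 and 229.9 to 31.9 and 27.2 CPM and the H3K27 demethylase gene Kdm6b from 1563 and 2809 to 379.6 and 335 CPM. Kdm1b, the demethylase that readies imprints in oocytes, rose from 236 and 246 to 627 and 682 CPM. Of 12 tested genes for DNA methylation and imprint protection, Zfp57 rose (32.3 and 12.6 to 454 and 294 CPM), and Uhrf1 (8913 and 6365 to 294 and 359 CPM), Dnmt3a (1347 and 1381 to 67.7 and 90.9 CPM) and Tet3 (1635 and 1346 to 374 and 311 CPM) fell. Without SAHA replicate 1 and without replicate 2, respectively, 2 and 3 of the 6 storage falls were kept, 2 and 2 of the 6 clearance falls, and 6 and 4 of the 10 histone methylation falls. The calls of Cpeb3, Cnot7, Cnot3, Kdm1b and Tet3 were lost in both cases (adjusted p up to 0.168).

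Nuclear genes of the mitochondrial respiratory chain gave rises and 1 fall. For the counts that follow, the shares over all genes tested were 11.7% higher and 8.14% lower. Of 36 nuclear genes of complex I, 8 rose and 0 fell, and of 38 for complexes II to V, 14 rose and 1 fell. Cox8a, a subunit of cytochrome oxidase, went from 7.41 and 9.28 to 207 and 156 CPM (log2 4.44 ± 0.40, adjusted p = 0.000213). Cox6c went from 19.9 and 13.1 to 316 and 253 CPM and Ndufa1 of complex I from 8.01 and 4.37 to 148 and 118 CPM. Cox5a went the other way, from 42.7 and 64.2 to 18.4 and 12.7 CPM. None of the 13 genes encoded in mitochondrial DNA passed, and their share of all counts was 0.312% and 0.140% in con-in vitro and 0.644% and 0.245% in SAHA, so the groups overlapped. Of 49 tested mitochondrial ribosomal protein genes 10 rose and 0 fell, among them Mrpl18 (32.6 and 32.2 to 173 and 143 CPM). Cytosolic ribosomal protein genes were next. Of 76 tested 3 rose and 7 fell, but 11 rose and 3 fell with library totals. The median over the 66 in the 10-count class was -1.40 (-0.67 with library totals). Rpl41 rose from 32.0 and 29.2 to 127 and 164 CPM and Rps12 fell from 20.5 and 23.5 to 3.45 and 2.61 CPM. Of the 7 falls 1 was kept without SAHA replicate 1 and 0 without replicate 2. Many of these genes have near-identical processed copies, so their counts are uncertain. Of 31 proteasome subunits 10 rose and 0 fell, among them Psmd2 (11.9 and 9.83 to 85.8 and 154 CPM). Without SAHA replicate 1, 3 of the 8 complex I rises were kept, 6 of the 14 for complexes II to V, 1 of the 10 for mitochondrial ribosomes and 5 of the 10 for the proteasome. The call of Cox5a was lost without either SAHA library, without con-in vitro replicate 2 and with library totals (adjusted p up to 0.194 in the first 3), and Rps12 had an adjusted p of 0.0655 without SAHA replicate 2.

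**Figure D4:**
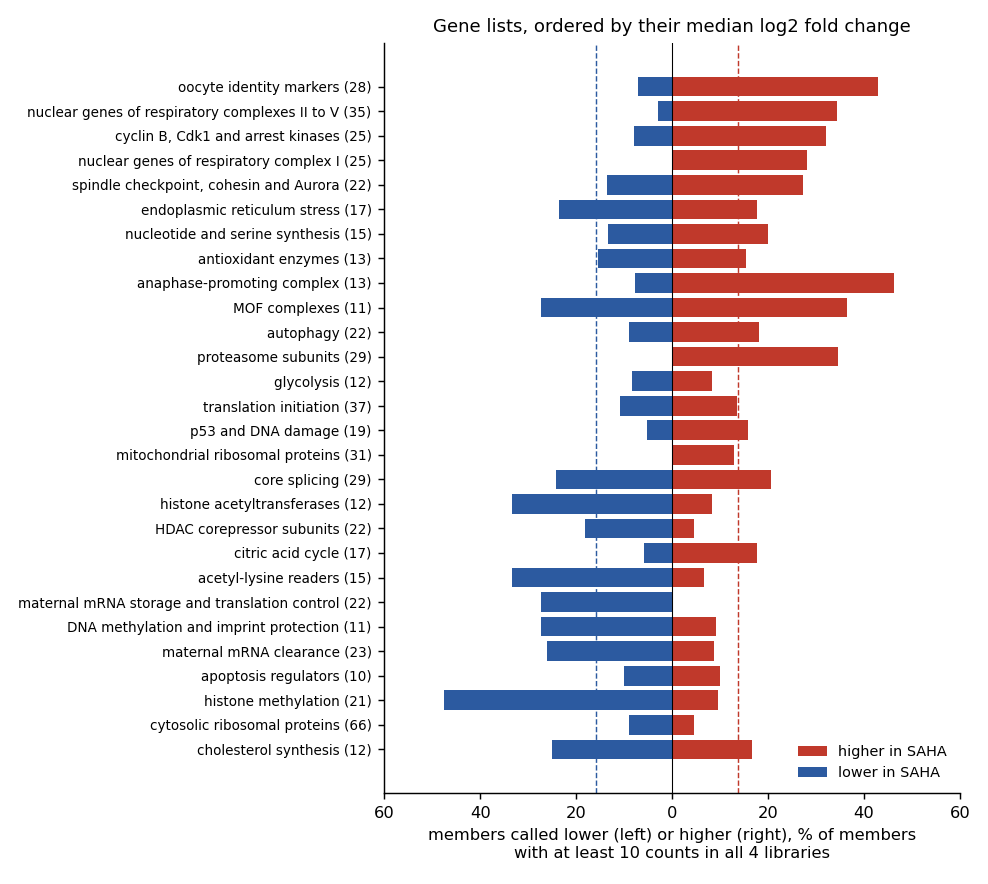
For each gene list with at least 10 members in the 10-count class (number in brackets), the share of those members called higher in SAHA (red, right) and lower (blue, left), ordered by the list's median log2 fold change. Dashed lines mark the shares over all 7467 genes of the class, 13.8% higher and 15.8% lower. Oocyte identity markers and respiratory complexes II to V lie at the top, and histone methylation and cytosolic ribosomal proteins near the bottom.

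Metabolic and stress lists had calls on both sides, in several cases at shares near the 11.7% higher and 8.14% lower of all genes tested. The lactate dehydrogenase gene Ldhb, which lets oocytes use lactate, rose from 648 and 599.5 to 14346 and 16615 CPM (log2 4.63 ± 0.32, adjusted p = 7.30e-05), with con at 1998 and 2707 CPM. In the same glycolysis list of 19 tested genes, 2 of them higher and 1 lower, the pyruvate carrier gene Mpc1 was at 0 in con-in vitro and at 25.0 and 20.3 CPM in SAHA, and the glucose transporter gene Slc2a1 fell from 178 and 188 to 6.84 and 4.55 CPM. Of 23 citric acid cycle genes 3 rose, led by Mdh1 (37.4 and 19.7 to 455 and 404 CPM), and Idh1 fell. In cholesterol synthesis (21 tested) 3 rose and 3 fell. Msmo1 rose from 16.9 and 6.55 to 209.7 and 166 CPM, while the sterol sensor gene Insig1 fell from 15827 and 12338 to 433 and 514 CPM.

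Of 25 antioxidant genes, with 3 higher and 2 lower near the shares over all genes, the peroxiredoxin gene Prdx1 rose (155 and 97.2 to 2556 and 2576 CPM) with 2 others, and Prdx3 and Sod1 fell. Among 20 endoplasmic reticulum stress genes the chaperone gene Hspa5 rose (77.7 and 90.4 to 311 and 497 CPM) with 2 others, and 4 fell (6 higher and 4 lower with library totals), led by the stress sensor gene Eif2ak3 (1911 and 1119.9 to 19.2 and 16.3 CPM). Of 25 genes for p53 and DNA damage 5 rose, among them Trp53 (11.9 and 19.4 to 121 and 137 CPM), and H2ax fell (35.3 and 60.6 to 7.41 and 6.71 CPM). The p53 gene thus rose with Cdkn1a, its classical target, while Gadd45a, another, fell. Of 30 autophagy genes 6 rose, among them Becn1 (9.19 and 13.7 to 132 and 143 CPM), and 2 fell, led by Atg14. Of 21 tested apoptosis regulators Bcl2l10 rose and Bcl2l1 fell (287 and 955 to 7.69 and 16.8 CPM). Fatty acid oxidation had 4 rises, among them Echs1, and 1 fall of 20 tested, and nucleotide and serine synthesis 4 rises, among them Rrm2, and 2 falls of 28. Of 38 translation initiation genes 5 rose, led by Eif2b1 (138 and 92.0 to 1434 and 1520.4 CPM), and 4 fell, and of 35 core splicing genes 9 rose and 7 fell. Of these genes, Sod1 and H2ax lost their calls without either SAHA library (adjusted p up to 0.169 and 0.0790), Idh1 without SAHA replicate 2 (0.0505) and Prdx3 without replicate 1 (0.0529). The rises kept without SAHA replicate 1 and without replicate 2, respectively, were 2 and 2 of 6 for autophagy, 1 and 2 of 5 for p53, 1 and 1 of 4 for fatty acid oxidation, 2 and 1 of 4 for nucleotide and serine synthesis, 3 and 4 of 5 for translation initiation and 3 and 3 of 9 for core splicing.

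Genes of other tissues and stages were read next, against shares of 11.7% higher and 8.14% lower over all genes tested. Of 14 tested neuronal genes 5 rose and 0 fell, among them the synaptic vesicle gene Syt1 (8.89 and 10.9 to 68.5 and 60.5 CPM), and no call of this list was kept without either SAHA library. The GABA synthesis gene Gad2 was at 0 in con-in vitro and in con and at 4.47 and 5.28 CPM in SAHA, close to the 3.00 and 3.87 CPM of in vitro PSMPs. Of 10 tested spermatid genes 1 rose (Odf1), and none of the 9 tested Hox genes passed (1 higher with library totals). Of 21 tested imprinted genes 3 rose, among them Mest (42.4 and 68.3 to 445 and 603 CPM), and 3 fell, among them Igf2r (2396 and 4112 to 41.3 and 37.9 CPM). Of 8 tested genes of the 2-cell stage 3 rose, among them Tcstv1 (14.8 and 16.1 to 272 and 169 CPM), and Btg2 fell. Of 20 tested replication-dependent histone genes, which lack poly(A) tails in dividing cells, 1 rose (H4c4) and 1 fell (H1f2). The calls of Btg2, Odf1, H4c4 and H1f2 were lost without either SAHA library.

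Many markers of other ovarian cells were at 0 or low in both groups, with exceptions such as Gja1 and Pecam1 below. Of all genes counted, 9614 were at 0 in con-in vitro but not in SAHA, and 611 the other way. More zeros in con-in vitro were thus not particular to these markers. The shares called over all genes tested were 11.7% higher and 8.14% lower. Of 20 cumulus and granulosa markers 12 were at 0 in both con-in vitro libraries and 4 in both SAHA libraries. Their summed level was 110 and 32.8 CPM in con-in vitro and 77.4 and 84.1 CPM in SAHA, so the groups overlapped. The follicle-stimulating hormone receptor gene Fshr and the inhibin gene Inha were at 0 in con-in vitro and did not pass, with 2.49 and 1.02 CPM of Fshr and 1.53 and 0.966 CPM of Inha in SAHA, and the granulosa regulator Foxl2 held 1 count in 1 SAHA library. The gap junction gene Gja1 was the only call of 15 tested, lower at 48.6 and 2.18 against 0.113 and 0.0568 CPM, and it rested on con-in vitro replicate 1 (adjusted p up to 0.212 without it or a SAHA library). Of 12 theca and stroma markers 11 were at 0 in con-in vitro and 5 in SAHA. The matrix gene Dcn was called, at 0 in con-in vitro and 2.32 and 3.30 CPM in SAHA. Of 12 leukocyte markers 10 and 5 were at 0, and the macrophage gene Cd68 was called, at 0 in con-in vitro and 1.64 and 3.35 CPM in SAHA. The calls of Dcn and Cd68 were lost without any 1 of the 4 libraries. Of 12 endothelial and red cell markers 7 and 7 were at 0. Pecam1 was called, going from 2.08 and 0.273 to 55.8 and 95.3 CPM, and was as high in con (93.8 and 49.8 CPM). In bulk samples of this kind, fewer cells of a type and less RNA per cell cannot be told apart.

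Gene length moved with the change. Genes of the 10-count class were divided into 5 equal classes by the summed length of their exons. The median log2 fold change went from 0.47 in the shortest class (67 to 2558 bases) to -0.07, -0.54, -0.60 and -0.86 in the longest (8336 to 123179 bases). The share called higher went from 25.0% to 5.29% and the share called lower from 8.50% to 22.0%. The median level over genes, as log2(CPM + 1), rose with length in con-in vitro from 4.50 and 4.35 in the shortest class to 5.70 and 5.71 in the longest. It was flat in SAHA (4.98 and 4.92 against 5.08 and 5.01). In con it went from 4.43 and 5.09 to 5.16 and 5.14, and in in vitro PSMPs from 5.34 and 4.90 to 4.72 and 5.26. Both con-in vitro libraries had this slope. The median log2 difference of SAHA from in vitro PSMPs was -0.06 in the shortest class and 0.13 in the longest. Many respiratory chain and proteasome genes are short and many chromatin genes long, and the part of length in the list counts above was not tested.

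**Figure D5:**
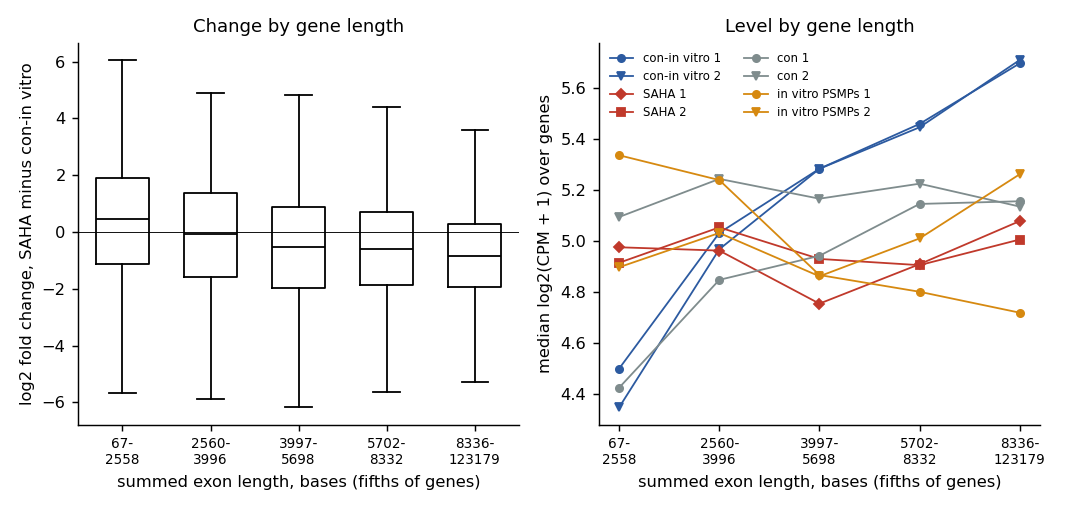
Left, log2 fold change of SAHA over con-in vitro in 5 classes of summed exon length (bases), as boxes of the quartiles with the median line and whiskers to the last point within 1.5 box lengths. Right, median log2(CPM + 1) over the same genes in each library. The box medians fall from 0.47 to -0.86, and of the 8 libraries the con-in vitro pair has the steepest rise with length.

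The highest con-in vitro levels among genes at 0 in both SAHA libraries were those of Cercam (9.78 and 31.7 CPM, at least 249-fold lower in SAHA), Shisa4 (8.89 and 25.1 CPM, at least 204-fold) and the ubiquitin ligase adaptor gene Zswim8 (5.93 and 12.8 CPM, at least 112-fold). Mab21l3 (5.34 and 12.6 CPM) and the adhesion gene Nectin1 (10.7 and 5.19 CPM) followed. Cercam, Shisa4 and Nectin1 were at 0 in con and in in vitro PSMPs too. All 5 calls were lost without either SAHA library (adjusted p up to 0.138), and DESeq2 did not call Cercam or Shisa4.

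SAHA was also compared directly with in vitro PSMPs, a contrast in which the level of no control library is compared. The spread came from the same fit over 6 groups, so con and con-in vitro libraries entered its standard errors and p-values. No gene passed (0 of 16736, 0.0%), with a smallest adjusted p of 1.0 by edgeR's quasi-likelihood test. At an unadjusted p under 0.05 there were 141 higher and 266 lower genes, and DESeq2 called 1 higher (Tmem14c) and 4 lower, among them H2ax and the urea transporter gene Slc14a1. In the 10-count class the median absolute log2 difference was 0.40 between SAHA and in vitro PSMPs, with a median standard error of 0.63, and 1.38 between SAHA and con-in vitro. With a standard error of that size the absence of calls does not show that the treatments act alike. Both groups were compared with the same con-in vitro libraries in this series, so their differences from it are not independent. Their own levels for the genes above were, for H1f8, 14012 and 15589 CPM in SAHA and 10804 and 12809 CPM in in vitro PSMPs. For Lsm14b they were 88.9 and 66.9 CPM in SAHA and 61.6 and 130.4 CPM in in vitro PSMPs. Cdkn1a (10.3 and 8.64 against 0.648 and 1.37 CPM) and Id2 (117 and 79.0 against 9.80 and 23.3 CPM) had higher values in both SAHA libraries than in either in vitro PSMPs library, with log2 differences of 3.22 ± 1.35 and 2.56 ± 0.81 that did not pass the test.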

How the data were processed

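RNA was sequenced from pooled mouse oocytes after full-length cDNA amplification and transposase library construction, per the labels' protocols. The authors deposited raw counts per gene for 12 columns in 6 groups (mm10; HISAT2 and featureCounts are named in the submitters' processing notes without their roles). Rows with gene names entered as deposited. Depth ran from 6.22 M to 35.6 M counts. Of these, 2 (in vivo PSMPs) agreed within counting noise and were merged, which left 11 libraries. Counts were scaled by TMM and tested with edgeR 4.0.16 (robust quasi-likelihood, 1 fit over 6 groups, 5 residual degrees of freedom, filterByExpr minimum count 10, Benjamini-Hochberg, threshold 0.05), after a test on simulated data. A gene at 0 in a group was compared with a floor of 3 counts over that group.

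The genes named are those called without overlap between groups, leaving out unnamed gene models. They are the 10 highest in SAHA at 0 in the control, the 10 largest rises and falls among genes with at least 10 counts in all 4 libraries, the 5 highest in the control at 0 in SAHA, and up to 3 rises and 3 falls of smallest p per gene list. Deacetylase genes and Kat8 are always given. The 48 lists and the members were chosen with earlier results of these data known. Alternatives were DESeq2 1.42.0, its size factors, library totals, other filters, only the 4 columns, a replicate block and leaving out each library. Python 3.11.15 was used for description.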

Additional observations from a re-analysis of the deposited data

How the results depend on the processing

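The counts of calls moved with the tool and the spread more than with the normalisation between TMM and DESeq2's size factors. Over all genes, DESeq2 called 3139 higher and 2215 lower, and library totals gave 3222 higher and 922 lower. A fit to genes with at least 10 counts in all 4 libraries gave 1232 higher. The fit with a replicate block gave 1271 higher and 1034 lower. With the in vivo PSMPs columns as 2 libraries there were 2858 higher and 1816 lower, and from only the 4 libraries 2823 higher and 1512 lower. Among genes with at least 10 counts in all 4 libraries, DESeq2 called 1860 lower, library totals gave 1679 higher, and a limit of 50 counts gave 669 higher. Among genes at 0 in con-in vitro, the higher calls were 1026 by DESeq2, 1172 with the in vivo PSMPs columns as 2 libraries, 1094 with library totals, 356 without a filter, 1453 from only the 4 libraries and 203 with the replicate block. Leaving out 1 library gave 645 to 2019 higher and 466 to 1328 lower calls over all genes, 515 to 1011 higher and 458 to 1096 lower calls in the 10-count class, and 59 to 306 higher calls at 0 in con-in vitro. The cause of these shifts was not tested, beyond the fewer genes or samples that an alternative tests by construction.

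Same-numbered libraries did not share deviations in every pair of groups (correlation 0.127 for SAHA and con-in vitro, down to -0.40 elsewhere), so the replicate numbers were not taken as pairs. SAHA against in vitro PSMPs gave 0 calls by edgeR in the setting reported and 1 higher and 4 lower by DESeq2. The uncalled log2 difference of Hdac4 changed sign to 0.51 with library totals and 0.051 with the replicate block, and ran from -0.72 to 0.67 when 1 library was left out, that of Hdac6 to 0.14 with library totals and from -1.86 to 1.77 when 1 library was left out, and that of Hdac7 ran from -7.92 to 2.45 when 1 library was left out. Of the 35 genes named by rank, 33 kept their calls by DESeq2, 32 with the replicate block and 27 without either SAHA library. With 2 libraries a group, depth of 6.22 M in con-in vitro limits what can be said of genes below a few CPM.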
